A study of Mus musculus with 4 samples.

Results

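Accessible chromatin was examined around 10 genes for transcription factors of the chondrocyte lineage outside the Sox family: Pax1, Pax9, Nkx3-2, Foxc1, Foxa2, Barx1, Trps1, Erg, Nfatc1 and Nfatc2. The genes were chosen by their known roles, with earlier results of these data known. Every peak in or within 100 kb of each gene was taken. This gave 922 of the 455071 peaks in all 4 libraries, which merged into 333 of 172311 sites, and no site belonged to more than 1 of the genes. For 89 of the 333 sites the nearest protein-coding gene was another gene. The named gene was the nearest for 5 of 16 sites at Nkx3-2, 9 of 28 at Pax9 and 13 of 24 at Foxc1. Counts by gene thus describe a locus with its neighbours. ATAC-seq, in which the Tn5 transposase cuts and tags open chromatin, had been carried out on chondrocytes from knee cartilage of C57BL/6 mice on postnatal days 0 to 4. Passage 0 (P0) cells had been cultured for less than 24 h, and passage 8 (P8) cells had been replated each time their number doubled, from 24000 to 48000 cells per cm2. Both groups were kept in serum-containing medium, so P0 too is a cultured primary cell and not cartilage tissue, and the labels name no allele or agent in either. There were 2 libraries for each passage, here called A and B because the peak lists do not carry replicate numbers. Whether they came from separate litters or cultures is not stated, so their spread may be technical.

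In the embryo, cells of the sclerotome and limb bud condense and become chondrocytes, which either mature to hypertrophy and give way to bone or persist as articular cartilage. Pax1 and Pax9, paired-box factors of the sclerotome, act upstream of the homeobox repressor Nkx3-2, which holds chondrocytes in the immature state. Forkhead factors promote endochondral growth and hypertrophy, Barx1 and Trps1 act largely as repressors at joints and in the growth plate, and Erg and the calcineurin-regulated NFAT factors are known from articular cartilage.

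Depth was judged from the background of the peak caller, which was 194 (A) and 162 (B) tags per 10 kb at P0 and 140 (A) and 134 (B) at P8. Both P8 libraries were therefore shallower than both P0 libraries, and the number of peaks differed across the whole genome. The label was checked at marker genes with a peak within 1 kb of a gene end. Of 10 chondrocyte markers, 10 held such a peak in each P0 library and 8 in each P8 library, and the 2 without one at P8 were Matn1 and Snorc. Of 5 blood markers, 2 held a peak in every library, while Ptprc, Cd3e and Hba-a1 held none. Of 4 markers each, endothelial cells had 2 with a peak in every library, skeletal muscle 3 at P0 and 2 at P8, and osteoblasts 2 at P0 and 1 at P8. The endothelial markers Pecam1 and Cdh5 and the osteoblast markers Bglap and Dmp1 also held none in any library. Of 5 fibroblast markers 4 held a peak in each P0 library and 3 in each P8 library. The part of other cell types in the results was not tested. A peak near a gene does not measure its expression, and in bulk cells a site open in fewer cells cannot be told apart from one less open in each cell.

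Peaks around the 10 genes were fewer at P8, by the same proportion as in the rest of the genome. The loci held 295 peaks in P0 A, 244 in P0 B, 184 in P8 A and 199 in P8 B. The groups did not overlap, and the means were 269.5 ± 36.1 and 191.5 ± 10.6 peaks (SD, n = 2 each), a ratio of 1.41. An exact two-sided permutation test gave p = 0.33, the smallest p that 2 libraries against 2 allow, so no comparison by this test could pass a threshold of 0.05. The genome-wide ratio was 1.40. Per 10000 peaks of the library, the loci took 20.2 and 20.3 at P0 and 20.5 and 19.9 at P8 (means 20.3 ± 0.064 and 20.2 ± 0.417, ratio 1.003, exact permutation p = 1). With the same number of peaks taken from each library, a setting added after the data were seen, the ratio of peak numbers became 0.973.

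Within this even total the genes differed. In raw numbers both P0 libraries lay above both P8 libraries for 9 of the 10 genes, all but Nkx3-2, whereas 56.1% of 21019 protein-coding genes did so. On the share of each library's peaks, both P0 libraries were higher for 4 genes (Foxa2, Barx1, Foxc1 and Trps1; 19.0% of all genes) and both P8 libraries were higher for 5 (Nkx3-2, Pax9, Erg, Nfatc1 and Nfatc2; 38.0% of all genes). Pax1 overlapped between the passages. The Foxa2, Barx1 and Foxc1 loci kept a mean P0 share above that at P8 under all 8 other settings tried, and the 5 loci with higher P8 shares kept theirs too.

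**Figure D1:**
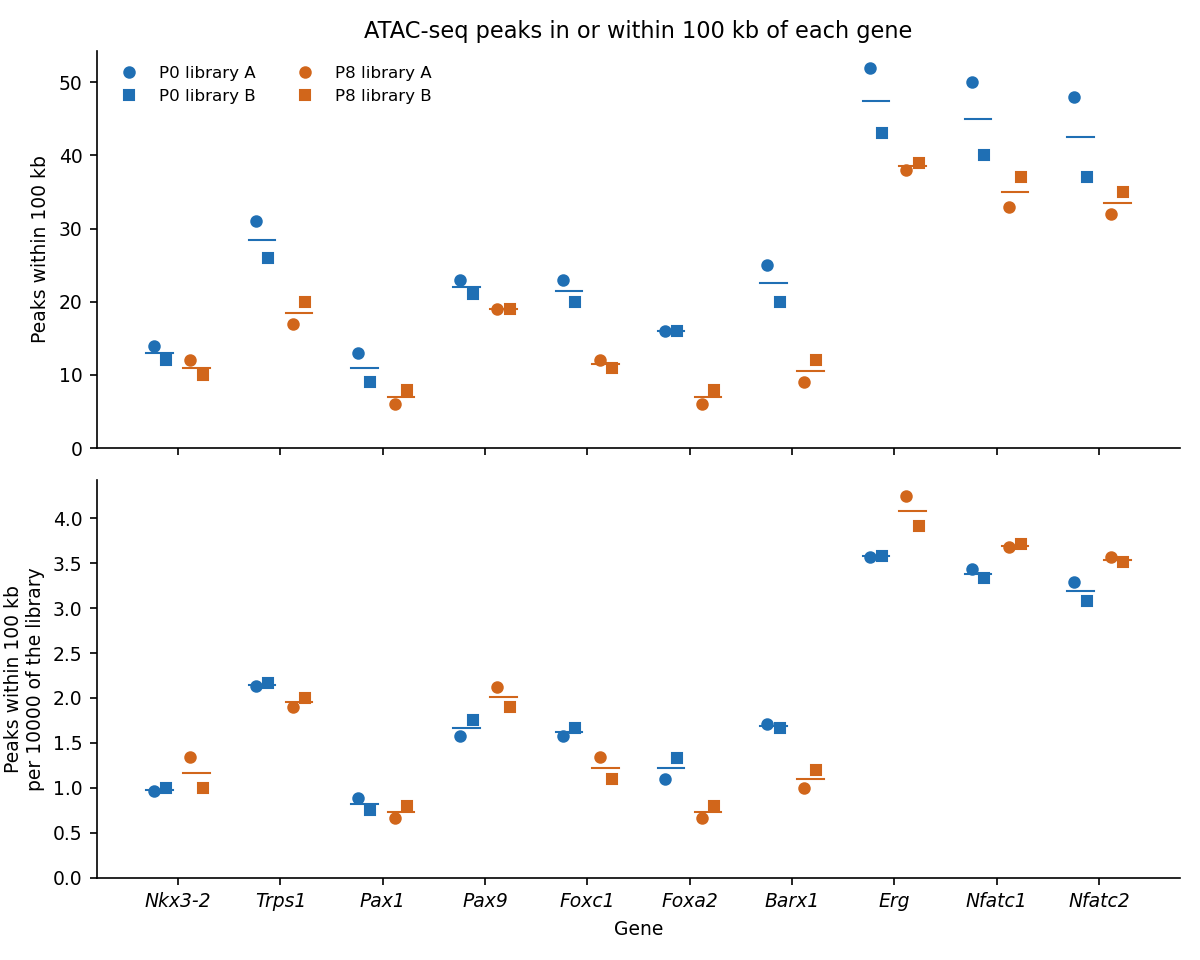
ATAC-seq peaks in or within 100 kb of each gene. The upper panel gives the number of peaks and the lower panel the number per 10000 peaks of the library, with 1 point per library and a line at the mean of each passage (n = 2). Erg, Nfatc1 and Nfatc2, the genes with the most peaks, lie higher at P0 above and lower at P0 below, while Foxa2, Barx1 and Foxc1 lie higher at P0 in both panels.

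The libraries that held a peak at each site gave the same picture. Of the 333 sites, 114 (34.2%) had a peak in all 4 libraries, against 32.4% genome-wide. A peak in each P0 library but none at P8 marked 51 sites (15.3%; 17.0% genome-wide), called P0-only here. The reverse pattern, P8-only, marked 9 sites (2.7%; 1.84% genome-wide). Both shares were near the background. P0-only sites made up 8 of 24 at Foxc1, 5 of 19 at Foxa2 and 6 of 27 at Barx1, but 3 of 56 at Nfatc2. With the same number of peaks taken from each library, 2, 2, 4 and 2 of these sites kept both P0 peaks. None of the 9 P8-only sites lay at these first 3 genes, at Nkx3-2 or at Nfatc1, and Erg held 4 of them. A missing peak means only that the site did not reach the caller's threshold in that library. When each library was left out in turn, the number of P0-only sites rose to 112 without P0 library B and 80 without P8 library B, with 33.6% and 24.0% of the sites here against 34.5% and 23.4% genome-wide. P8-only sites rose to 17, 18 and 19 without P0 library A, P8 library A and P8 library B, which was 5.11%, 5.41% and 5.71% against 4.12%, 6.45% and 7.13% genome-wide. Their share was thus above the background in the first setting and below it in the other two.

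**Figure D2:**
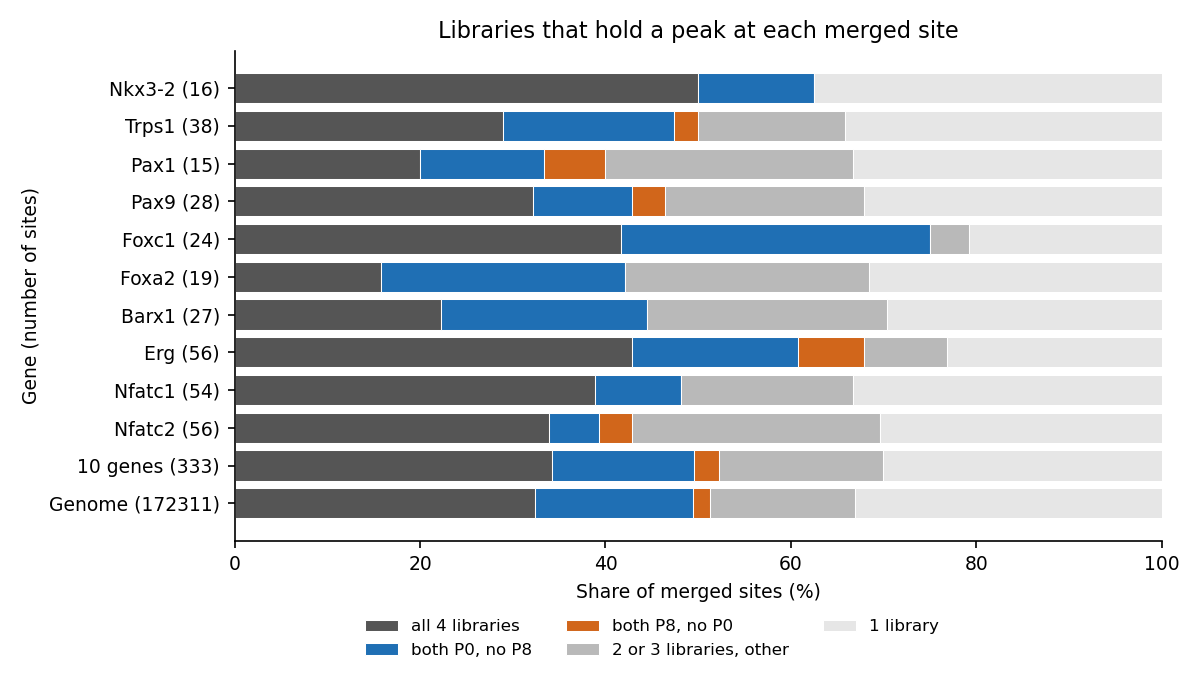
Share of merged sites (%, horizontal axis) by the libraries that held a peak, for each gene, for the 10 genes together and for the genome, with the number of sites in parentheses. P0-only sites reach 33.3% at Foxc1 and 26.3% at Foxa2, against 17.0% genome-wide and 5.36% at Nfatc2.

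At sites with peaks in all 4 libraries, the height of a peak could be compared. Fold enrichment, the pileup of tags at the summit over the local background, was compared on the log2 scale with limma across all 55890 such sites. Of the 114 at these loci, 8 were higher at P0 (7.02%; 11.8% genome-wide) and 1 was higher at P8 (0.877%; 1.08% genome-wide) at a Benjamini-Hochberg adjusted p below 0.05. The median difference, P0 minus P8, was 0.12 at these loci and 0.20 over all sites. With fold enrichment centred on each library's median, the split turned to 6 higher at P0 and 8 higher at P8 here, and from 6571 and 601 to 2090 and 3467 genome-wide. Centring thus put the P0 calls above the background (5.26%; 3.74% genome-wide) instead of below it, and the P8 calls stood at 7.02% against 6.2%. Of the 9 calls, 7 were shared by both scalings with the same direction. Without P8 library B, 20 sites were called higher at P0 (16.3%; 20.4% genome-wide) and 2 at P8 (1.63%; 1.14% genome-wide). Without P0 library A or P8 library A, 2 were called higher at P8 (1.74% and 1.4%; 1.26% and 0.955% genome-wide).

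**Figure D3:**
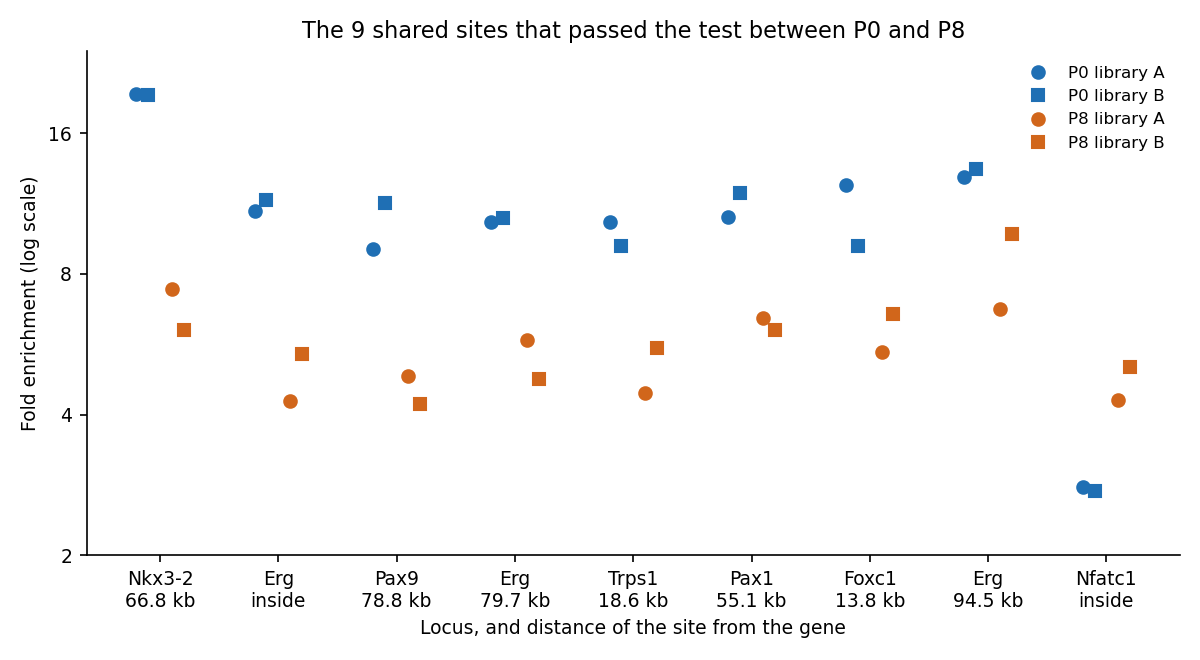
Fold enrichment (log scale, 1 point per library) at the 9 shared sites past the threshold, by locus and distance from the gene. At 8 sites both P0 libraries lie above both P8 libraries, and the widest gap is at the site 66.8 kb from Nkx3-2. At the Nfatc1 site both P8 libraries lie above.

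Pax1 and Pax9 overlap in function in the sclerotome, and the Pax1 locus held fewer peaks than the Pax9 locus in both passages. Around Pax1 there were 13 and 9 peaks at P0 and 6 and 8 at P8. The site nearest to its start, chr2:147365044-147365350, lay 50 bp downstream of an annotated start and was open in all 4 libraries, with fold enrichments of 5.54 and 4.97 at P0 and 3.70 and 4.23 at P8. Both P0 values were above both P8 values, and the site did not pass the test. The tallest peaks of the locus, chr2:147307739-147308119, lay 56.9 kb upstream, at 12.4 and 11.4 in the P0 libraries and 9.60 in P8 library B, with none in P8 library A. The Pax1 site that passed the test, chr2:147430110-147430395, lay 55.1 kb beyond the gene. It stood at 10.6 and 11.9 at P0 against 6.43 and 6.06 at P8, a log2 difference of 0.85 (SE 0.17, limma adjusted p = 0.015). The call was lost without P0 library B (adjusted p = 0.089). Among P0-only sites the strongest lay 68.3 kb downstream of the start (chr2:147433265-147433456; 6.54 and 5.03), and the only P8-only site lay 545 bp downstream of the start (chr2:147365539-147365653; 4.04 and 3.87). The P8-only site did not keep both peaks under either the stricter −log10 q or equal peak numbers.

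Around Pax9 there were 23 and 21 peaks at P0 and 19 in each P8 library, a ratio of 1.16. Its start lay under chr12:56695425-56696119, open in all 4 libraries with fold enrichments of 8.44, 9.56, 9.16 and 7.60 in P0 A, P0 B, P8 A and P8 B. The passages overlapped there. The tallest site, chr12:56662469-56663439, was 32.0 kb upstream, at 13.1 and 11.9 at P0 and 8.59 and 10.5 at P8. It passed only with pileup (adjusted p = 0.00072) and without P8 library B (0.021). The only P8-only site, chr12:56707449-56707633 inside the gene, stood at 5.93 and 7.07, and the strongest P0-only site, chr12:56689855-56690005, lay 5.47 kb upstream at 4.08 and 4.85. The P0-only site did not keep both peaks at a −log10 q of at least 5 or with equal peak numbers, whereas the P8-only site did in both. The called site of this locus, chr12:56791644-56792103, lay inside Slc25a21, a mitochondrial carrier gene, 78.8 kb from Pax9. Its fold enrichment fell from 9.05 and 11.4 at P0 to 4.83 and 4.22 at P8 (log2 difference 1.17, SE 0.20, limma adjusted p = 0.0091), and it was called under each of the other settings (adjusted p from 5.68e-05 to 0.023). Which gene such a site acts on was not tested.

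At Nkx3-2 the sites over the start and in the gene had overlapping heights in both passages, while 1 distant site was much lower at P8. The locus held 14 and 12 peaks at P0 and 12 and 10 at P8. The site over the start, chr5:41764200-41764774, had fold enrichments of 6.28 and 6.23 at P0 and 7.20 and 6.26 at P8. The neighbouring site in the gene, chr5:41763291-41764121, stood at 4.65 and 5.34 at P0 and 5.13 and 5.32 at P8. Neither site passed the test, and the P8 values at the neighbour lay within the P0 range. The neighbour was called higher at P0 with pileup over the lowest background (adjusted p = 0.047). At chr5:41694295-41694666, inside Rab28, the peaks reached 19.4 and 19.3 at P0, the tallest of the 10 loci, but 7.42 and 6.06 at P8.

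This site lies 66.8 kb from Nkx3-2. Its summit held 49 and 48 tags at P0 and 14 and 11 at P8, and the peak narrowed from 349 and 334 bp to 184 and 113 bp. The means were 19.4 ± 0.042 and 6.74 ± 0.957 (SD, n = 2), a ratio of 2.87 (log2 difference 1.53, SE 0.15, limma adjusted p = 0.0043). It ranked 31st of the 55890 shared sites by difference and passed under every other setting run (adjusted p from 4.34e-10 to 0.0045). A further site in Rab28, chr5:41707024-41708641, stood at 7.96, 7.46, 7.78 and 8.47 in P0 A, P0 B, P8 A and P8 B. The passages overlapped there, although with pileup over the lowest background the site was called higher at P0 (adjusted p = 0.0225). A cluster of 3 adjoining sites from 79.3 to 80.5 kb upstream of Nkx3-2 also held peaks in all 4 libraries. The tallest and the farthest of these sites lay nearest to another gene, Bod1l. The tallest of them, chr5:41843975-41844606, stood at 12.7 and 13.2 at P0 and 8.37 and 12.995 at P8 and was called higher at P0 with pileup (adjusted p = 0.040) and without P8 library B (0.0076). The farthest, chr5:41844722-41845090, stood at 4.57 and 3.51 at P0 and 5.12 and 5.20 at P8 and was called higher at P8 with centred libraries alone (adjusted p = 0.047). The strongest P0-only site of the locus, chr5:41701172-41701503, was again in Rab28, 62.7 kb downstream of the Nkx3-2 start, at 4.97 and 5.49. It did not keep both peaks when the same number of peaks was taken from each library.

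**Figure D4:**
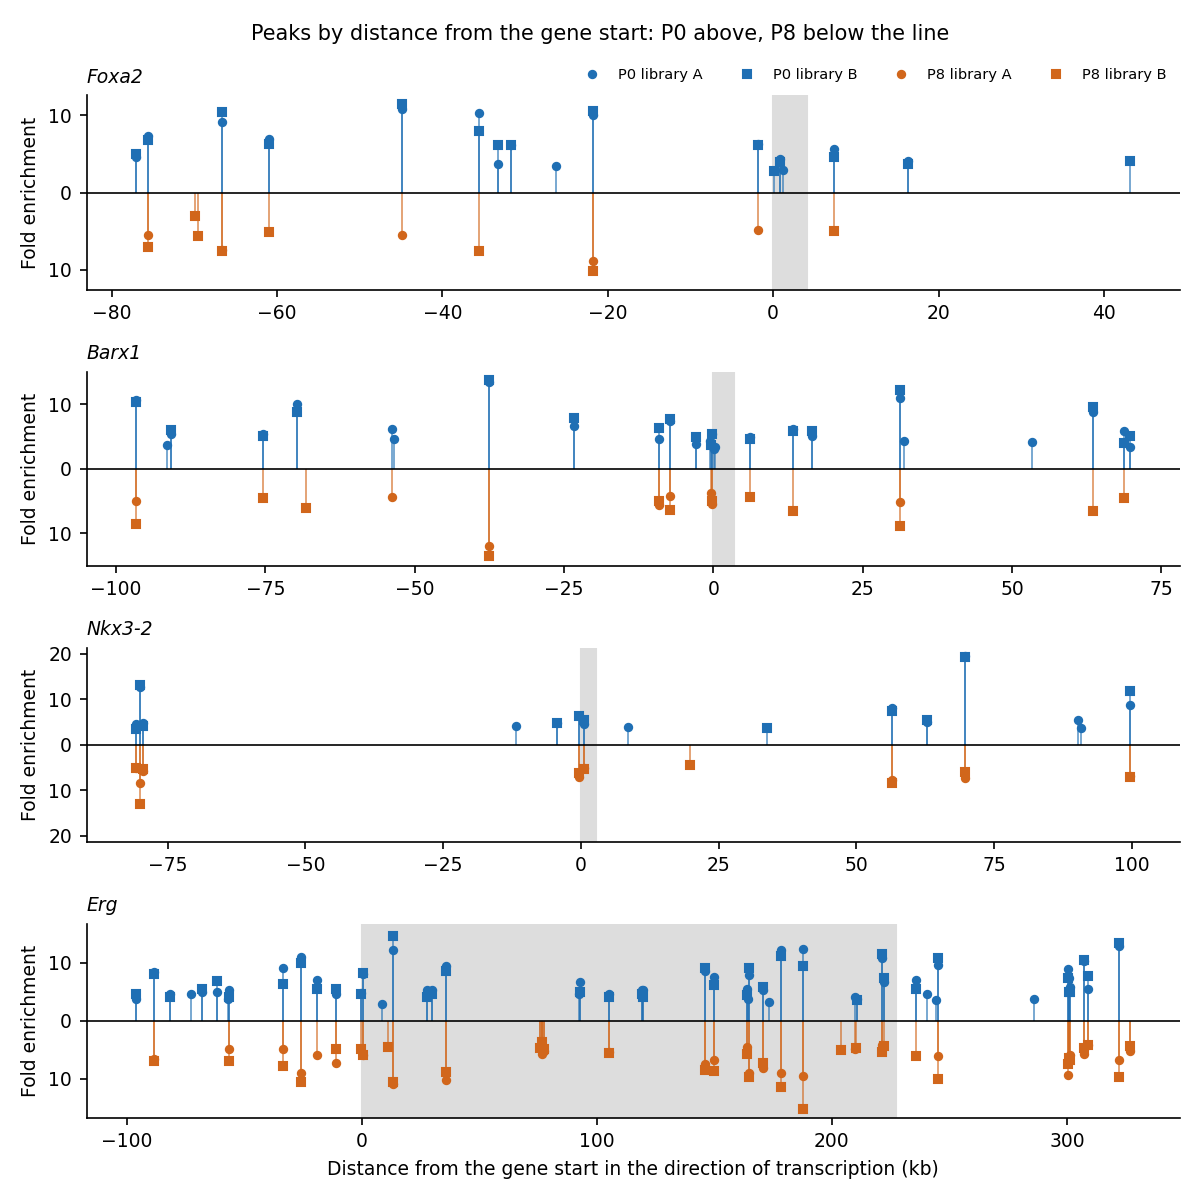
Fold enrichment of every peak (vertical axis, P0 upward and P8 downward, 1 point per library) against distance from the most upstream gene start in kb, for Foxa2, Barx1, Nkx3-2 and Erg, with the gene in grey. The Foxa2 gene carries P0 peaks only, the tallest Nkx3-2 locus peak stands 69.6 kb downstream of the start at P0, and Erg has a group of P8 peaks without P0 peaks 75.95 to 77.5 kb inside.

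Foxc1, a forkhead factor required for skull and endochondral bone formation, had 23 and 20 peaks at P0 and 12 and 11 at P8. Its start, chr13:31805917-31806870, was open in all 4 libraries at 5.59 and 7.03 at P0 and 6.08 and 5.81 at P8, so the passages overlapped. The adjoining site 326 bp inside the start, chr13:31806972-31807349, stood at 2.99 and 2.57 at P0 and 2.91 and 3.82 at P8 and was called higher at P8 with centred libraries alone (adjusted p = 0.030). Around the gene 8 of 24 sites were P0-only, the strongest at 75.7 kb upstream (chr13:31730619-31730919; 6.62 and 5.95). All 8 passed at matched background, but only 2 had both P0 peaks when the same number of peaks was taken from each library. The tallest site, chr13:31792461-31792859, lay 13.8 kb upstream, with values of 12.4 and 9.15 at P0 against 5.44 and 6.57 at P8 (log2 difference 0.83, SE 0.20, limma adjusted p = 0.027). That call was lost without P0 library A (adjusted p = 0.168) and with centred libraries (adjusted p = 0.066).

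Foxa2, a forkhead factor that promotes hypertrophic maturation, was the only 1 of the 8 genes with an annotated start here that had a start under a P0-only site. The locus held 16 peaks in each P0 library and 6 and 8 at P8, a ratio of 2.29. Within 20 kb there were 6 and 5 peaks at P0 and 1 in each P8 library, too few for the ratio of 5.5 to be read closely, and the ratio within 100 kb was 1.69 when the same number of peaks was taken from each library. The site chr2:148045940-148046440 covered 259 of the 300 bases around the middle of 3 annotated starts, with fold enrichments of 4.31 and 3.94 and summits of 27 and 20 tags in P0 A and B. No P8 peak lay anywhere in the gene. Both peaks also passed at matched background, at a −log10 q of 5 and when the same number of peaks was taken from each library. Just upstream, chr2:148048435-148049229 held peaks in both P0 libraries (6.28 and 6.17) and in P8 library A (4.79).

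Farther upstream the Foxa2 locus was not closed at P8. The tallest site, chr2:148091678-148092052 at 44.7 kb, held 10.9 and 11.4 at P0, 5.44 in P8 library A and no peak in P8 library B. The site at 21.3 kb, chr2:148068227-148069366, was open in all 4 libraries at 10.1, 10.5, 8.81 and 10.2. Of the 3 shared sites of the locus none passed the test, with log2 differences from 0.12 to 0.39. With pileup over the lowest background, the site at 21.3 kb was called higher at P0 (summits of 52 and 43 tags against 17 and 24, adjusted p = 0.0004). The strongest P0-only site, chr2:148078579-148078836, lay 31.6 kb upstream at 6.21 and 6.12.

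Promoter sequences from RefSeq (GRCm38.p6, from 250 bases before to 50 after a start, 5′ to 3′ on the gene's strand) are shown for Foxa2, whose start lost its peak, and for 3 genes whose start stayed open, Barx1, Pax9 and Nfatc2. Capitals mark matches on either strand to any of 11 motifs. They were the NFAT motif TGGAAA, the forkhead motif TGTTTAC, the GATA-factor motif AGATAA, the SOX motif ACAATG, the AP-1 motif TGANTCA, the NKX3 motif TAAGTG, the RUNX motif TGTGGT, the ETS motif CCGGAAG, the TATA box written TATAAA, the CCAAT box by its name and the GC box written GGGCGG. The Foxa2 sequence is chr2:148045899-148046198 on the minus strand, Barx1 chr13:48662786-48663085 on the plus strand, Pax9 chr12:56695221-56695520 on the plus strand and Nfatc2 chr2:168601608-168601907 on the minus strand.
Foxa2: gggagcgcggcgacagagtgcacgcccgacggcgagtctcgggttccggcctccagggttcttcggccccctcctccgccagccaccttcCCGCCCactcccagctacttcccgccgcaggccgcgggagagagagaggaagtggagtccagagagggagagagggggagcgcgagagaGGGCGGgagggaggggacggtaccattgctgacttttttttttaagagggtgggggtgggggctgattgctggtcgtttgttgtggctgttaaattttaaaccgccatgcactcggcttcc
Barx1: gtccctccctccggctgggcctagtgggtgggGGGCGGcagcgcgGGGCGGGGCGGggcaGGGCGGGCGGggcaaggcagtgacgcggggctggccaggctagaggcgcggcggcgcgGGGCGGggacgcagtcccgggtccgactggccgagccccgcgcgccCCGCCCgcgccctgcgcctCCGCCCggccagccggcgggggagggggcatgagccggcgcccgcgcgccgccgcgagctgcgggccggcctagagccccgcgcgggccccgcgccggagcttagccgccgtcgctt
Pax9: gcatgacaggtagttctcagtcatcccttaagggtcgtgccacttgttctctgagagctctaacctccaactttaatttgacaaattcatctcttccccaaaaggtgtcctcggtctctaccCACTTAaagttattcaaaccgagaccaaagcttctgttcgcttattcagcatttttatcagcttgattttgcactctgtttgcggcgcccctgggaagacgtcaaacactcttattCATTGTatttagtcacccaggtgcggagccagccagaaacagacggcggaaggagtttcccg
Nfatc2: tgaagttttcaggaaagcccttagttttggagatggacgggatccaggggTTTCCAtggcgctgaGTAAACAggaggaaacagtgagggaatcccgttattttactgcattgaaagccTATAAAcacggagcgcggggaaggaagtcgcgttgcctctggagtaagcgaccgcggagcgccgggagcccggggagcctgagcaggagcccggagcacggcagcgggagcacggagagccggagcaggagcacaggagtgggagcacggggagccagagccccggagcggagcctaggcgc
The Foxa2 and Barx1 windows are rich in G and C, at 64.0% and 84.7%, against a median of 52.7% over 32851 promoters of the same length. Their only matches were GC boxes, 2 in Foxa2 and 8 in Barx1, some of which adjoin, and 35.7% of all promoters hold at least 1. Barx1 has 50 CpG dinucleotides, more than 99.1% of promoters, and Foxa2 23. The Pax9 window has 1 NKX3 match and 1 SOX match, letters found in 9.2% and 12.6% of promoters. The Nfatc2 window has 1 NFAT match, 1 forkhead match and 1 TATA box, found in 21.4%, 3.65% and 13.6%. The share of G and C was 47.0% in the Pax9 window and 62.0% in the Nfatc2 window. A match is a description of letters and not a bound site.

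Barx1, a homeobox repressor of the joint and the stomach mesenchyme, had 25 and 20 peaks at P0 and 9 and 12 at P8, a ratio of 2.14. Its start, chr13:48662702-48663049, was open in all 4 libraries at 5.39 and 5.38 at P0 and 5.54 and 4.98 at P8. The passages overlapped at the start, while 6 of 27 sites were P0-only and none P8-only. The strongest P0-only site, chr13:48593213-48593497, lay 69.5 kb upstream, nearest to Ptpdc1, at 9.93 and 8.70. The tallest site, chr13:48625122-48625931, lay 37.1 kb upstream and was also nearest to Ptpdc1. It differed little, at 13.4 and 13.7 at P0 and 11.96 and 13.5 at P8. The site 27.4 kb beyond the gene, chr13:48693924-48694788, stood at 10.9 and 12.2 at P0 and 5.10 and 8.93 at P8 (log2 difference 0.77, SE 0.24, limma adjusted p = 0.056) and did not pass. It was called with pileup over the lowest background (adjusted p = 1.39e-05), without P0 library A (0.030) and without P8 library B (0.00036).

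Trps1, a GATA-type zinc finger repressor of the growth plate, had 31 and 26 peaks at P0 and 17 and 20 at P8. At the higher-coordinate end of the gene, chr15:50890005-50890612 was open in all 4 libraries at 5.61, 5.54, 4.92 and 5.54, whereas a site 622 bp outside the other end, chr15:50653944-50654135, was P0-only at 3.95 and 4.51. This last site did not keep both P0 peaks at a −log10 q of at least 5 or when the same number of peaks was taken from each library. The tallest site, chr15:50703737-50704276 inside the gene, stood at 10.3 and 9.27 at P0 and 10.4 and 12.96 at P8 and did not pass, except as higher at P8 with centred libraries (adjusted p = 0.039). The site 18.6 kb outside the higher-coordinate end, chr15:50909188-50909615, fell from 10.3 and 9.15 at P0 to 4.45 and 5.56 at P8 (log2 difference 0.97, SE 0.20, limma adjusted p = 0.016). It was called under every other setting run (adjusted p from 0.0015 to 0.041). Of the 11 shared sites 3 had both P0 libraries above both P8 libraries and 4 the reverse, against 49.9% and 11.6% of shared sites genome-wide. Inside the gene, chr15:50772682-50772959 stood at 4.97 and 3.66 at P0 and 5.93 and 10.1 at P8 (log2 difference -0.86, SE 0.27, limma adjusted p = 0.055). That difference passed with centred libraries (adjusted p = 0.0074), with pileup (0.0012) and without P0 library A (0.0098) or P8 library A (0.0066). The strongest passage-specific sites, both inside the gene, were the P0-only chr15:50762794-50763030 (8.69 and 5.49) and the P8-only chr15:50692884-50693089 (4.57 and 4.55). The second of these did not keep both peaks at a −log10 q of at least 5.

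Erg, an ETS factor of joint-forming and articular chondrocytes, had 52 and 43 peaks at P0 and 38 and 39 at P8. Of its 56 sites, 24 were open in all 4 libraries. The site 62 bp inside its most upstream start, chr16:95585274-95586531, stood at 8.10 and 8.21 at P0 and 5.90 and 5.93 at P8, with both P0 values above both P8 values, but did not pass the test. A narrower site 14 bp upstream, chr16:95586607-95586941, held peaks of 4.74 and 4.66 at P0 and 4.98 in P8 library B. The tallest site, chr16:95398738-95399318 inside the gene, overlapped between passages, at 12.4 and 9.39 at P0 and 9.53 and 15.3 at P8.

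At Erg, 3 of 24 shared sites were called, all higher at P0 (12.5%; 11.8% genome-wide). Inside the gene, chr16:95364850-95365678 fell from 10.9 and 11.5 at P0 to 4.28 and 5.38 at P8 (log2 difference 1.22, SE 0.19, limma adjusted p = 0.0074). It was called under every other setting run (adjusted p from 4.12e-09 to 0.0076). The other calls lay inside the neighbouring potassium channel gene Kcnj15, at chr16:95278993-95279448 (10.3 and 10.5 against 5.79 and 4.76, log2 difference 0.99) and chr16:95264256-95264708 (12.9 and 13.4 against 6.73 and 9.73, log2 difference 0.70). The first was called under every other setting run, and the second was lost with centred libraries and without P0 library B or P8 library A (adjusted p = 0.107, 0.095 and 0.081). With pileup over the lowest background, 4 further shared sites of the locus were called higher at P8, of 7 such calls at the 10 loci. They were 3 neighbours from 73.1 to 73.8 kb outside the lower-coordinate end, nearest to Kcnj15 (chr16:95284970-95285389, chr16:95285481-95285719 and chr16:95285755-95286076; adjusted p = 0.0093, 0.038 and 0.031), and chr16:95436727-95436982 inside Erg (0.042). Their differences in fold enrichment were from -0.22 to -0.05 and passed in no other setting. A stretch of 1548 bp inside Erg, chr16:95509095-95510642, also favoured P8. It held 4 peaks in P8 library A, 3 in P8 library B and none in either P0 library. Fold enrichment there was modest, from 3.69 to 5.72, with summits of 9 to 15 tags. The stretch made up 3 of the 4 P8-only sites of the locus, and it was noticed after the values were seen. Of these 3 sites, 1 (chr16:95509095-95509364) kept both P8 peaks at a −log10 q of at least 5, and chr16:95509885-95510249 did not keep them with equal peak numbers. Of its P0-only sites the strongest, chr16:95647980-95648185, lay 61.4 kb upstream, nearest to the related gene Ets2, at 4.97 and 6.87, and it did not keep both peaks with equal peak numbers.

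Nfatc1 and Nfatc2 encode transcription factors that enter the nucleus when calcineurin removes their phosphates, and mice without Nfatc2 develop changes of osteoarthritis. Nfatc1 had 50 and 40 peaks at P0 and 33 and 37 at P8. The site at its higher-coordinate end, chr18:80712784-80713323, was open in all 4 libraries at 3.43 and 4.08 at P0 and 2.61 and 3.56 at P8. The tallest site, chr18:80603893-80604376, lay 1.83 kb outside the lower-coordinate end at 11.6, 10.3, 9.16 and 11.3. Both sites overlapped between passages, and the first was called higher at P0 without P8 library B (adjusted p = 0.041). Inside the gene, chr18:80637223-80637560 was the single call in favour of P8: 2.80 and 2.75 at P0 and 4.30 and 5.06 at P8, 1.68-fold higher at P8 (log2 difference -0.75, SE 0.15, limma adjusted p = 0.013). It remained a call in every other setting that tested it (adjusted p from 0.0023 to 0.034) and was left out by the filter on a mean fold enrichment of 4. Its summit held 20 and 15 tags at P0 and 21 and 26 at P8. The strongest P0-only site, chr18:80524761-80525218, lay 81.0 kb from the gene, nearest to Ctdp1, at 9.29 and 6.87, and no site of the locus was P8-only.

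Nfatc2 had 48 and 37 peaks at P0 and 32 and 35 at P8, with 19 of 56 sites open in all 4 libraries and 3 P0-only, the lowest share of the 10 genes. Its most upstream start, chr2:168601262-168602231, stood at 8.41 and 8.66 at P0 and 6.36 and 7.16 at P8, and the tallest site, chr2:168518200-168518805 inside the gene, at 13.3 and 14.8 at P0 and 15.3 and 10.7 at P8. The start was higher in both P0 libraries without passing the test, and the tallest site overlapped. The strongest P0-only site of all 10 loci by its higher value, chr2:168384513-168384981, lay 91.4 kb beyond the gene at 11.2 and 10.5. None of the 19 shared sites passed, with log2 differences from -0.50 to 0.42. The lowest of these, chr2:168621175-168621522, lay 19.5 kb upstream, nearest to Atp9a. It stood at 5.80 and 7.32 at P0 and 8.74 and 9.68 at P8 (limma adjusted p = 0.103). It was called higher at P8 with centred libraries (adjusted p = 0.017) and with pileup over the lowest background (0.011). Next to it, chr2:168619276-168619483, also nearest to Atp9a, was P8-only at 5.50 and 3.69. This P8-only site did not keep both peaks at a −log10 q of at least 5 or with equal peak numbers.

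**Figure D5:**
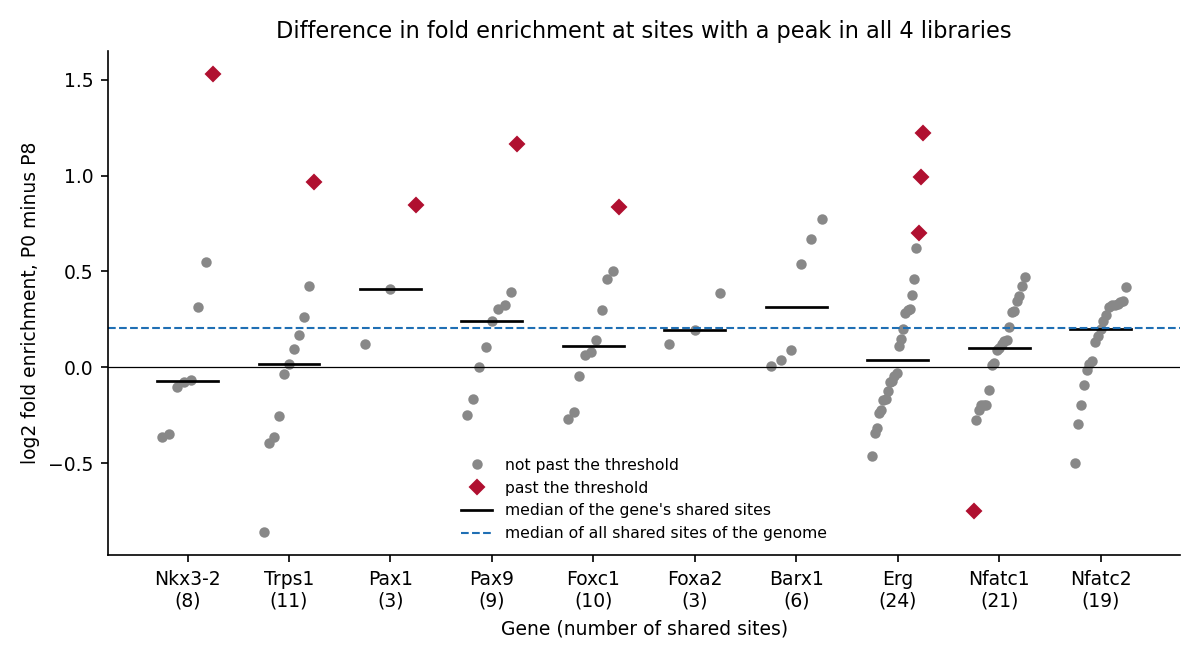
Difference in log2 fold enrichment, P0 minus P8 (vertical axis), at each site with a peak in all 4 libraries, by gene, with the number of sites in parentheses. Diamonds mark the 9 sites past the threshold and black lines the medians, which run from -0.07 at Nkx3-2 to 0.41 at Pax1 around the genome-wide 0.20 (dashed).

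The median difference of a gene's shared sites was above 0, towards P0, for 9 of the 10 genes, as it was genome-wide, and with centred libraries for 2 of the 10. Without centring the medians were 0.41 at Pax1 (3 sites), 0.31 at Barx1 (6 sites), 0.24 at Pax9 (9 sites), 0.20 at Nfatc2 (19 sites) and 0.19 at Foxa2 (3 sites). They were 0.11 at Foxc1, 0.10 at Nfatc1, 0.04 at Erg, 0.02 at Trps1 and -0.07 at Nkx3-2. At Nkx3-2, 3 of 8 shared sites had a difference above 0, and at Trps1 6 of 11, and each had a single call. Besides the sites given above, the largest differences towards P8 were at chr16:95415892-95416259 inside Erg (5.34 and 5.84 at P0, 8.14 and 7.28 at P8; log2 difference -0.46) and chr15:50888925-50889762 inside Trps1 (3.89 and 3.81 at P0, 6.14 and 4.18 at P8; log2 difference -0.40). Neither passed the test (limma adjusted p = 0.123 and 0.203), but the Erg site was called with centred libraries (adjusted p = 0.028) and the Trps1 site without P8 library B (0.047). Over all loci 39 of 114 shared sites (34.2%; 49.9% genome-wide) had both P0 values above both P8 values and 20 (17.5%; 11.6% genome-wide) the reverse.

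Lists of related genes, also chosen with earlier results of these data known, were described in the same way. Among 16 partners and targets of these factors in cartilage, 9 had a higher share of peaks in both P0 libraries (19.0% of all genes) and 2 in both P8 libraries (38.0% of all genes), with a median ratio of peak numbers of 1.71 (1.29 over all genes). Sox9, the master regulator of chondrocytes, went from 25 and 18 peaks to 8 in each P8 library, and Gli2, an effector of Hedgehog signalling, from 69 in each P0 library to 23 and 31. Ihh, the Hedgehog ligand of the growth plate, went from 23 in each to 11 and 9. Col2a1, the main cartilage collagen, held 35 and 37 at P0 and 30 and 34 at P8. The ratios of means were 2.69 at Sox9, 2.56 at Gli2 and 2.30 at Ihh, just above the 2.29 of Foxa2, and 1.12 at Col2a1.

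Among 11 relatives of the 10 factors, 3 had a higher share in both P0 libraries and 4 in both P8 libraries (19.0% and 38.0% of all genes; median ratio 1.35), near the background. Fli1, the ETS relative of Erg, went from 39 and 36 peaks to 20 and 22, and Barx2 from 23 and 19 to 10 and 14. Nfatc3 held 21 and 18 at P0 and 22 and 24 at P8, so both P8 libraries lay above both P0 libraries there. Among 5 genes of calcineurin and its regulators, 2 had a higher share in both P0 libraries and 1 in both P8 libraries (19.0% and 38.0% of all genes; median ratio 1.27). Ppp3ca, a catalytic subunit, went from 48 and 44 peaks to 24 and 25, and Rcan1, an inhibitor, from 29 in each P0 library to 23 in each P8 library. Ppp3ca thus had a larger fall in peak number than Nfatc1 or Nfatc2, without a test of that difference.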

How the data were processed

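ATAC-seq libraries of P0 and P8 mouse chondrocytes (2 each, 50 bp paired-end reads) had been aligned with Bowtie2, and the authors ran MACS2 on every library by itself. The submitters' processing notes name the build mm10. The authors deposited 4 measures of a peak. They are its summit pileup (a signal in tags, unscaled), its fold enrichment (a ratio of pileup to local background), a −log10 p-value and a −log10 q-value. Signal, fold enrichment, −log10 p-value and −log10 q-value are as the authors deposited them, but in each list 1 header of the last pair was damaged. These columns were told apart by the order in which MACS2 writes them and by recomputing the p-value from a Poisson distribution, and the filter on −log10 q rests on this. The local background spans up to 10 kb, so a fold enrichment also depends on neighbouring peaks. A further deposited table, with the authors' own comparison of the passages (fold changes and significance), was not used. No column of values per sample was left unused (0 columns).

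Libraries were told apart by peak names, which carry no replicate number. Overlapping peaks (1 bp or more) of the 4 libraries were merged into sites, with the highest fold enrichment per library kept. Gene positions are those of RefSeq on GRCm38.p6 in a table that gives spans only, so exons and introns were not told apart. Starts came from RefSeq promoters, which matched 8 of the 10 genes with 13 starts; Trps1 and Nfatc1 were described by the ends of their spans. Distances to a start run to the nearest of its starts. The nearest gene is the nearest of the protein-coding spans.

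Shared sites were tested with limma 3.58.1 on log2 fold enrichment, with no pseudocount, over all 55890 shared sites with Benjamini-Hochberg adjustment. The design took all 4 libraries with passage as the only term. In a simulation of this comparison 100% of 200 sites changed by a log2 difference of 1 or 2 were recovered, and 4.85% of unchanged sites had p below 0.05. The simulated noise was normal with the same SD at every site, set from the median variance within passages. Recovery at noisier sites was therefore not measured. Numbers of peaks per library were compared by exact permutation tests. Merging and windows were tested on simulated peaks. Alternatives were a 20 kb window, the nearest gene, a −log10 q of at least 5, a matched background, a 50% overlap, a peak in at least 1 library, median centring, pileup over the lowest background, a mean fold enrichment of at least 4, and leaving out each library. For the matched background, peaks were rescored at the lowest background and kept at a −log10 p of at least 3.38. An equal number of peaks per library was added after the data were seen.

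The members and lists were chosen with earlier results of these data known, and 1 gene of the list of relatives is not reported here. Sites named were, per gene, that at or nearest to a start or span end, the tallest, and the strongest P0-only and P8-only, and over all loci the 5 largest differences of shared sites in each direction. Further sites, and all calls, were named after their values were seen. Versions were R 4.3.3, Python 3.11.15, pandas 2.3.3, numpy 2.4.6, matplotlib 3.10.9 and scipy 1.17.1.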

Additional observations from a re-analysis of the deposited data

How the results depend on the processing

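Only peaks above the caller's threshold are listed, and the part of depth in the peak numbers was not tested beyond the matched background (ratio 1.38). The ratio of peak numbers in the loci (1.41) stayed above 1 except when equally many peaks were kept per library (0.973). The ratio of shares (1.003) fell below 1 with a 20 kb window (0.955), a −log10 q of at least 5 (0.979) and the same number of peaks (0.973), and was from 0.988 to 1.02 with single libraries left out. P0-only sites (51) numbered 26 within 20 kb (13.8%; 17% genome-wide), 24 with the same number of peaks (9.72%; 11%), 132 (39.6%; 40.2%) when a peak in at least 1 P0 library and none at P8 was enough, and 60 to 112 with single libraries left out. P8-only sites (9) numbered 16 (6.48%; 5.08%), 28 (8.41%; 11.7%) and 10 to 19 under the last 3 of these. Shared sites called higher at P0 (8) numbered 3 within 20 kb (4.41%; 11.8% genome-wide), 19 with pileup over the lowest background (16.7%; 21.2%) and 6 to 20 with single libraries left out. Those called higher at P8 (1) numbered 8 with centred libraries (7.02%; 6.2% genome-wide), 7 with pileup (6.14%; 4.79%), 1 to 2 with single libraries left out and 0 by limma with a mean fold enrichment of at least 4, where 3 had an unadjusted p below 0.05. A narrower window and a filter hold fewer sites by construction, and the cause of the other changes was not tested. Of 58 values under an alternative 34 kept their direction, or for counts stayed within 1.5 times. Barx1, Foxa2 and Foxc1 kept a ratio of shares above 1 in 8 of 8 alternatives, Trps1 and Pax1 in 7 of 8. No paired analysis was possible because the peak names carry no replicate number.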
